A study of Oryctolagus cuniculus with 36 samples.

Results

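The rabbit genes ENSOCUG00000012283 and ENSOCUG00000003569 are 2 of the 9419 Ensembl genes measured in liver and terminal ileum after obeticholic acid (OCA) or vehicle. They were chosen on measured values. Of the 12 genes called lower after OCA in the embolized liver lobe, they had the 2 largest differences among those whose mean reached 50 normalized counts (0.139% of the 8653 genes tested were called lower there). The OCA comparison in the embolized lobe is therefore given below as a description, with no test. The calls that chose them depended on the setting: with only the 2 embolized groups fitted neither gene was called, edgeR did not call ENSOCUG00000012283, and with equal totals, or in 8 of the 12 fits that left out 1 embolized library, ENSOCUG00000003569 was not called. None of the 9419 IDs could be paired with a gene of the RefSeq table used here, which lists 38822 genes. Both genes thus appear under their IDs, without a name, a known role, a position or a sequence, and the labelled tissues were not checked against marker genes.

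The study asked how OCA given before portal vein embolization affects the rabbit liver. RNA was sequenced from 36 libraries, 6 in each of 6 groups, all from animals labelled WT. The groups were the embolized cranial lobe, the non-embolized caudal lobe and the terminal ileum, each after OCA and after vehicle, and by the series' design all rabbits, those given vehicle included, underwent embolization. The labels used here do not give a dose, a time after embolization or the animals' age, nor whether the 6 libraries of a group are 6 rabbits. Embolization was always of the cranial lobe, so its effect cannot be told apart from that of lobe position.

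OCA is a bile acid derivative that activates the farnesoid X receptor (FXR), a nuclear receptor for bile acids found in hepatocytes and in the epithelium of the ileum. In the liver, active FXR lowers bile acid synthesis and uptake and raises export. In the ileum it induces a hormone of the fibroblast growth factor family that reaches the liver through the portal vein and lowers bile acid synthesis there. Portal vein embolization blocks the portal branches to some lobes, which then shrink while the other lobes grow.

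Values are counts per gene after the authors' division by a size factor for each library, called normalized counts here. The reads behind them could be recovered. Summed over the 9419 listed genes, the libraries held 12 to 27.3 M (megareads) in liver and 11.2 to 24.5 M in ileum. Whether reads of other genes were left out is not known. Liver and ileum were normalized in separate tables, so tests were made within each, and normalized counts of the 2 tissues are not on one scale. In ileum, OCA replicate 1 and vehicle replicate 6 stood apart. Each library was set against the median of the 5 others in its group, for genes where that median was at least 50 normalized counts. More than 2-fold apart were 2677 genes in OCA replicate 1 and 2202 in vehicle replicate 6, against 228 to 908 in the other ileum libraries.

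ENSOCUG00000012283 was lower after OCA than after vehicle in both lobes, in every library. In the embolized lobe it ran from 16.95 normalized counts in OCA replicate 2, through a median of 352, to 1373 in OCA replicate 5, against 2054 in vehicle replicate 2, a median of 3663 and 7131 in vehicle replicate 4. The groups did not overlap, and even the highest OCA library stayed below the lowest vehicle library. The group means were 543 ± 566 after OCA and 3989 ± 1750 after vehicle (SD, n = 6 each), a 7.35-fold difference. On the log2(normalized count + 1) scale the difference was −3.94 ± 0.72 (standard error), and 1 of 8653 genes tested had a more negative one. The log2 value gives more weight to the lowest library than the means do: without OCA replicate 2, which held 14 reads of this gene, it was −3.19, and from recovered reads edgeR and DESeq2 both gave −2.88, as did the log2 ratio of the group means. In bulk tissue, fewer cells of a type and less RNA per cell cannot be told apart.

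The same comparison was made in the non-embolized lobe, whose difference was not the one that chose the gene. These libraries are not independent of the choice: they entered the shared estimate of the spread, their values were known, and same-numbered lobes may come from the same animal. There ENSOCUG00000012283 ran from 147 normalized counts in OCA replicate 4, through a median of 278, to 696 in OCA replicate 3, against 962 in vehicle replicate 6, a median of 2037 and 3850.2 in vehicle replicate 5. Again every OCA library lay below every vehicle library. Groups without overlap, lower after OCA, were found for 0.89% of the 8653 genes in this lobe and for 0.312% in the embolized lobe. The means were 342 ± 198 after OCA and 2211 ± 1101 after vehicle (SD, n = 6 each), a 6.47-fold difference. The log2 difference was −2.71 ± 0.72, with a 95% interval of −4.20 to −1.23, and it did not pass the threshold (limma adjusted p = 0.0785 over all genes). In this comparison 0.254% of genes were called lower, and neither of the 2 genes was among them.

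The 4 liver groups share 1 estimate of the spread, to which they contributed unequally for this gene. The SD of ENSOCUG00000012283 on the log2 scale was 2.44 in the embolized lobe after OCA, against 0.60 there after vehicle, 0.78 in the non-embolized lobe after OCA and 0.76 there after vehicle. When only the 2 groups of the non-embolized lobe were fitted, the standard error was 0.38 and the limma adjusted p was 0.00766. DESeq2 on the recovered reads also called the gene (adjusted p = 0.00553), as did limma with sample quality weights (adjusted p = 0.0227), and edgeR did not (adjusted p = 0.0573). Of all 8653 genes, DESeq2 called 116 lower in this lobe, sample quality weights 187 and edgeR 16, against 22 in the main fit. The fit of only the 2 groups called 21 of 8046 lower. An exact permutation test of these 12 libraries gave an unadjusted two-sided p of 0.00216, which is the smallest that 924 splits can give. For the reasons given above, none of these p-values is independent of the choice of the gene. They come from the same 12 libraries and are not separate evidence.

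ENSOCUG00000003569 was lower after OCA by a smaller factor. In the embolized lobe it ran from 223 normalized counts in OCA replicate 1, through a median of 266, to 338 in OCA replicate 3, against 437 in vehicle replicate 5, a median of 1212 and 2038 in vehicle replicate 2. The OCA libraries lay close together and below all vehicle libraries, which were spread widely. The means were 269.8 ± 43.4 after OCA and 1218 ± 739.6 after vehicle (SD, n = 6 each), a 4.51-fold difference, or −1.91 ± 0.38 on the log2 scale. The gene next in size among those called lower in this lobe was ENSOCUG00000006887, at −1.70 ± 0.29.

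For the same gene the non-embolized lobe ran from 356 normalized counts in OCA replicate 4, through a median of 607, to 738 in OCA replicate 1, against 562 in vehicle replicate 6, a median of 1066 and 2697 in vehicle replicate 1. Here the groups overlapped: 4 of the 6 vehicle libraries lay above all OCA libraries, and 2 OCA libraries lay below all vehicle libraries. The means were 566 ± 169 after OCA and 1291 ± 813 after vehicle (SD, n = 6 each). The log2 difference of −1.02 ± 0.38 did not pass (95% interval −1.81 to −0.24, limma adjusted p = 0.208). The count tests did not call it either (adjusted p = 0.136 with edgeR and 0.0506 with DESeq2).

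**Figure D1:**
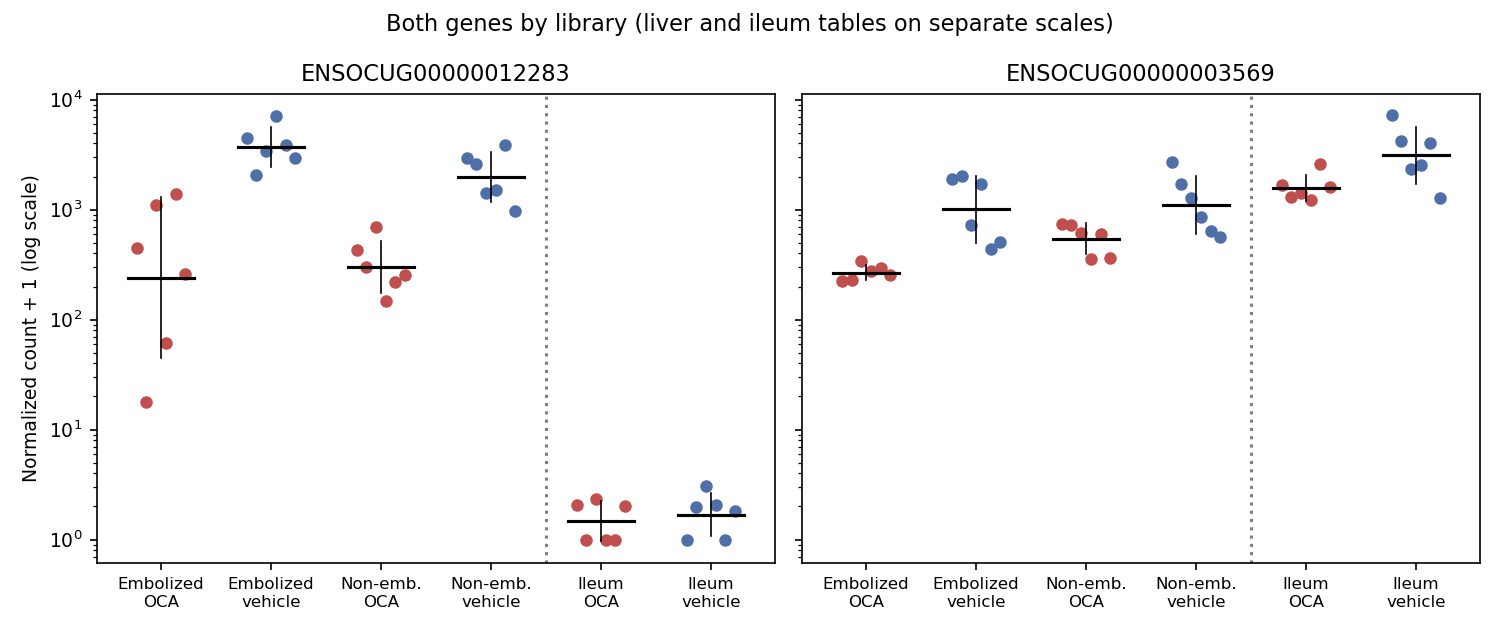
Normalized counts plus 1 (log scale) of ENSOCUG00000012283 (left) and ENSOCUG00000003569 (right) in the 6 groups, with OCA groups in red and vehicle groups in blue; each point is a library, and the bars mark the mean and SD of the log2 values. ENSOCUG00000012283 after OCA lies below all vehicle libraries of the same lobe and is at 0 to 2 reads in every ileum library, while ENSOCUG00000003569 is present in both tissues.

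The levels of the 4 liver groups can be put in order for each gene. For ENSOCUG00000012283 the mean was highest in the embolized lobe after vehicle and next in the non-embolized lobe after vehicle, whose ranges overlapped. The OCA groups followed, with the embolized lobe above the non-embolized lobe by mean (543 and 342) and by median (352 and 278) but below it by mean log2 value (7.91 and 8.24), so the lobes after OCA have no clear order. The highest embolized OCA library (1373) also exceeded the lowest non-embolized vehicle library (962). For ENSOCUG00000003569 the lobes after vehicle were close, at 1218 in the embolized and 1291 in the non-embolized lobe. After OCA the embolized lobe was lowest of all groups, and its 6 libraries (223 to 338) lay below the 6 of the non-embolized lobe (356 to 738).

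Embolized and non-embolized lobes were set side by side under each treatment. These comparisons use the embolized libraries that chose the genes, so they are given without a test. ENSOCUG00000012283 had a log2 difference between embolized and non-embolized lobe of −0.33 ± 0.72 after OCA and of 0.90 ± 0.72 after vehicle. ENSOCUG00000003569 differed by −1.02 ± 0.38 after OCA and by −0.13 ± 0.38 after vehicle. Between the lobes after OCA, 7.47% of all genes had groups without overlap, lower in the embolized lobe, and ENSOCUG00000003569 was one of them.

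Whether same-numbered lobes come from the same animal is not in the labels. A fit that blocked on the number within each treatment left these differences as they were, with standard errors of 0.58 for ENSOCUG00000012283 and 0.22 for ENSOCUG00000003569. With libraries matched by number, ENSOCUG00000003569 was lower in the embolized lobe in 6 of 6 numbers after OCA and in 4 of 6 after vehicle. The 6 of 6 adds nothing to the lack of overlap given above, since any matching of those libraries would give it. ENSOCUG00000012283 was lower there in 2 of 6 numbers after OCA and in 1 of 6 after vehicle. The OCA difference of the embolized lobe minus that of the other lobe was −1.23 ± 1.02 for ENSOCUG00000012283 and −0.89 ± 0.54 for ENSOCUG00000003569 (log2). Whether the lobes differed in response was not tested for these genes, since the choice of genes favours a large difference in the embolized lobe.

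**Figure D2:**
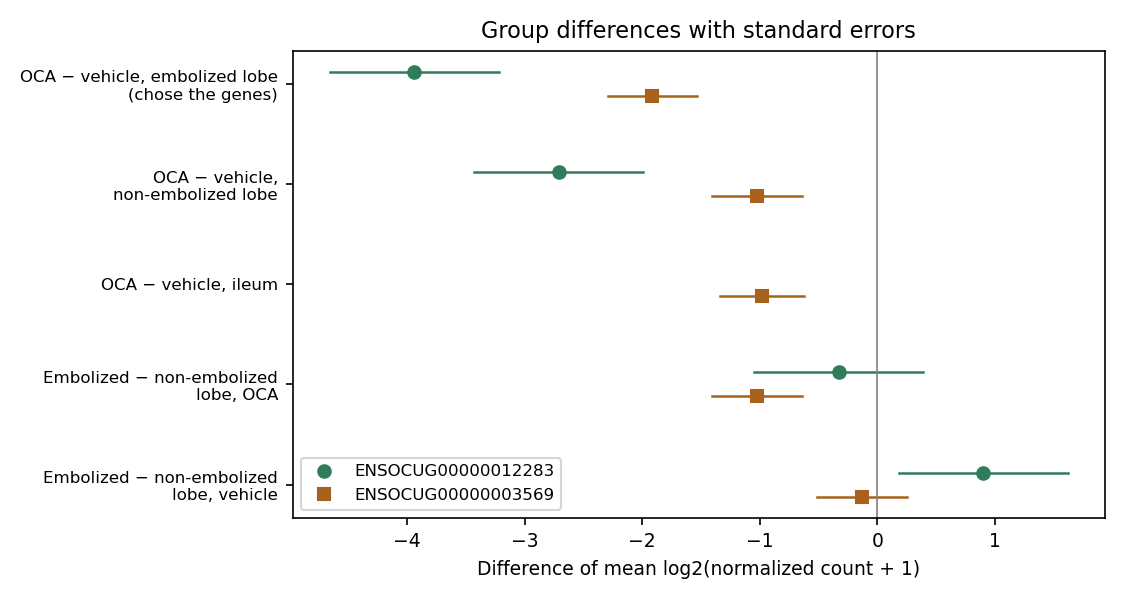
Difference of mean log2(normalized count + 1) for 5 comparisons, with bars of 1 standard error from limma; circles are ENSOCUG00000012283 and squares ENSOCUG00000003569. All OCA differences lie below 0, with ENSOCUG00000012283 at −3.94 and −2.71 in the lobes and ENSOCUG00000003569 at −1.91, −1.02 and −0.98 in the lobes and ileum.

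The ileum separated the genes. ENSOCUG00000012283 had 0 to 2 reads in each of the 12 ileum libraries, 8 reads in all, and 5 libraries had none. Every library was under the floor of 3 reads, which corresponds to 0.123 to 0.267 RPM (recovered reads per M of its library), so no fold between OCA and vehicle is given. The gene did not pass the filter on low values there. In liver it took 31.2 ± 30.6 RPM in the embolized lobe after OCA and 235 ± 102 there after vehicle (SD, n = 6 each). The non-embolized lobe had 21.3 ± 12.3 RPM after OCA and 138 ± 72.2 RPM after vehicle. The lowest liver library, at 1.10 RPM, also exceeded the ileum floor.

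ENSOCUG00000003569, by contrast, was abundant in ileum. It ran from 1215 normalized counts in OCA replicate 4, through a median of 1501, to 2609.8 in OCA replicate 5, against 1267 in vehicle replicate 6, a median of 3272 and 7280.3 in vehicle replicate 1. The groups overlapped, with 3 of the 6 vehicle libraries above every OCA library, in a tissue where 0.322% of genes had groups without overlap, lower after OCA. The means were 1632 ± 508 after OCA and 3605 ± 2110 after vehicle (SD, n = 6 each), a ratio of 0.453, beside 0.439 in the non-embolized lobe.

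The ileum difference of ENSOCUG00000003569, −0.98 ± 0.36 on the log2 scale (95% interval −1.76 to −0.21), did not pass (limma adjusted p = 0.575). An exact permutation test, two-sided, gave an unadjusted p of 0.0368 (n = 6 each). In this comparison 0% of 9010 genes were called lower, with 688 genes at an unadjusted p under 0.05 in either direction, and edgeR called 0 genes and DESeq2 80. Of the libraries that stood apart, vehicle replicate 6 was the lowest vehicle library for this gene. Without it and OCA replicate 1, vehicle replicates 3 and 4, at 2328 and 2542, were the lowest of that group, and the difference was −1.26 ± 0.31 (limma adjusted p = 0.149). Sample quality weights gave −1.48 ± 0.30 (limma adjusted p = 0.0364), in a fit that called 205 of the 9010 genes lower and 144 higher.

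Both genes ranked among the more abundant ones of the liver after vehicle. By normalized count, which is not divided by gene length, ENSOCUG00000012283 ranked between 266 and 696 of 9419 genes in the embolized lobe and between 415 and 1393 in the non-embolized lobe after vehicle. After OCA its rank ran from 1029 to 7869 in the embolized and from 1812 to 4448 in the non-embolized lobe. ENSOCUG00000003569 ranked between 2882 and 3679 in the embolized lobe after OCA and between 705 and 2462 there after vehicle. Its rank in the non-embolized lobe was 1629 to 2835 after OCA and 585 to 2084 after vehicle, and in ileum 1077 to 2095 after OCA and 309 to 2018 after vehicle.

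The spread between libraries moved in opposite ways for the genes in the embolized lobe. ENSOCUG00000012283 after OCA spanned an 81.0-fold range there, and its log2 SD of 2.44 exceeded that of 99.7% of the 8653 genes, while after vehicle its range was 3.47-fold. ENSOCUG00000003569 after OCA spanned only a 1.51-fold range, with a log2 SD of 0.23, below the median of 0.40 over all genes, while after vehicle it spanned 4.66-fold with a log2 SD of 1.01. Its coefficient of variation was 16.1% after OCA and 60.7% after vehicle in the embolized lobe, 29.9% after OCA and 62.9% after vehicle in the other lobe, and 31.1% after OCA and 58.5% after vehicle in ileum. The difference in spread was not tested.

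**Figure D3:**
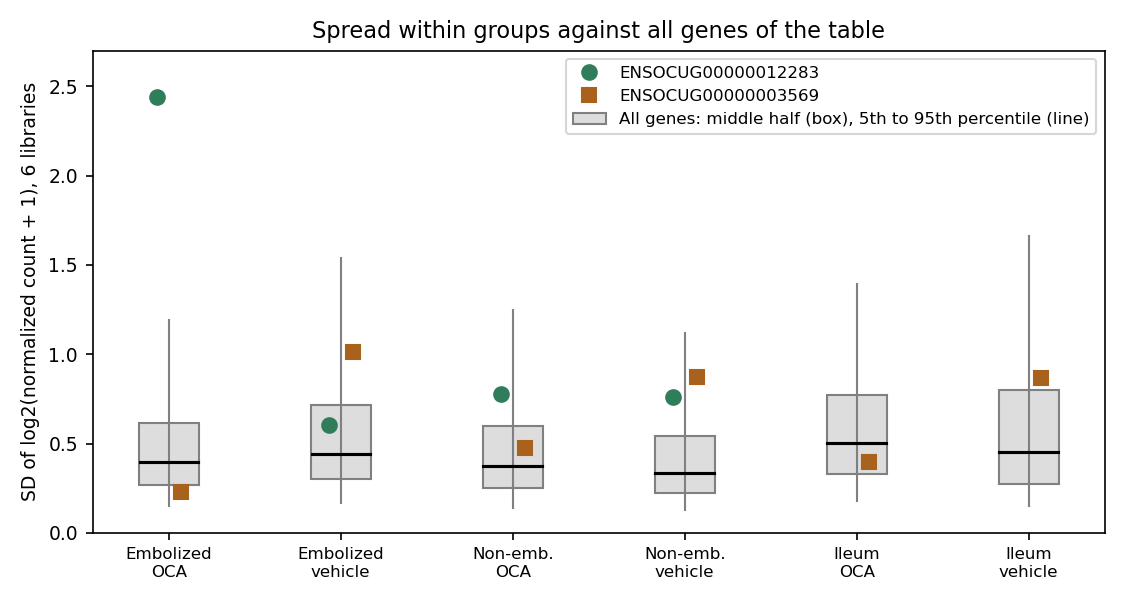
SD of log2(normalized count + 1) over the 6 libraries of each group; grey boxes span the middle 50% of all tested genes, black lines are their medians and grey lines run from the 5th to the 95th percentile. ENSOCUG00000012283 (circles, liver only) stands at 2.44 in the embolized lobe after OCA, and ENSOCUG00000003569 (squares) is lower after OCA than after vehicle in each tissue.

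ENSOCUG00000003569 also differed between replicates 1 to 3 and replicates 4 to 6. The library numbers in the labels fall into the same runs, and what the runs are is not given. Within the non-embolized lobe the OCA libraries were at 614 to 738 in replicates 1 to 3 and 356 to 599.9 in replicates 4 to 6, and the vehicle libraries at 1285 to 2697 in replicates 1 to 3 and 562 to 847 in replicates 4 to 6, with no overlap between the runs in either treatment. Replicates 1 to 3 lay above replicates 4 to 6 without overlap for 9.55% of all genes in the OCA libraries of this lobe, for 9.55% in its vehicle libraries, and for 1.49% in both. ENSOCUG00000012283 did so in the OCA libraries of this lobe, at 303 to 696 in replicates 1 to 3 and 147 to 253 in replicates 4 to 6, and its runs overlapped in the other 3 liver groups. In the embolized lobe the runs of ENSOCUG00000003569 overlapped in both treatments. Their means were 263 (replicates 1 to 3) and 276 (replicates 4 to 6) after OCA, and 1554 and 881 after vehicle. Over all liver libraries the gene's log2 difference between the runs was 0.75 ± 0.23, higher in replicates 1 to 3 (limma adjusted p = 0.0459). That fit includes the embolized libraries that chose the gene, and 326 genes, or 3.77%, were called higher in it. It also treats all liver libraries as independent, although same-numbered lobes may come from the same animal, so the p may be too small. For ENSOCUG00000012283 the same difference was 0.14 ± 0.52 (limma adjusted p = 0.885). In ileum it was 0.29 ± 0.36 for ENSOCUG00000003569 (limma adjusted p = 0.999), where 0% of genes were called; at an unadjusted p under 0.05 there were 105.

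Within the runs, the OCA differences kept their direction and varied in size. For ENSOCUG00000003569 in the embolized lobe the log2 difference was −2.44 within replicates 1 to 3 and −1.39 within replicates 4 to 6. The non-embolized lobe gave −1.39 ± 0.37 within replicates 1 to 3 and −0.66 ± 0.42 within 4 to 6, and ileum −1.51 ± 0.42 and −0.45 ± 0.49. For ENSOCUG00000012283 it was −3.93 and −3.95 in the embolized lobe, and −2.30 ± 1.08 and −3.13 ± 0.86 in the non-embolized lobe. With a term for the runs, the adjusted p in the non-embolized lobe was 0.0562 for ENSOCUG00000012283 and 0.102 for ENSOCUG00000003569 (limma), so neither passed.

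**Figure D4:**
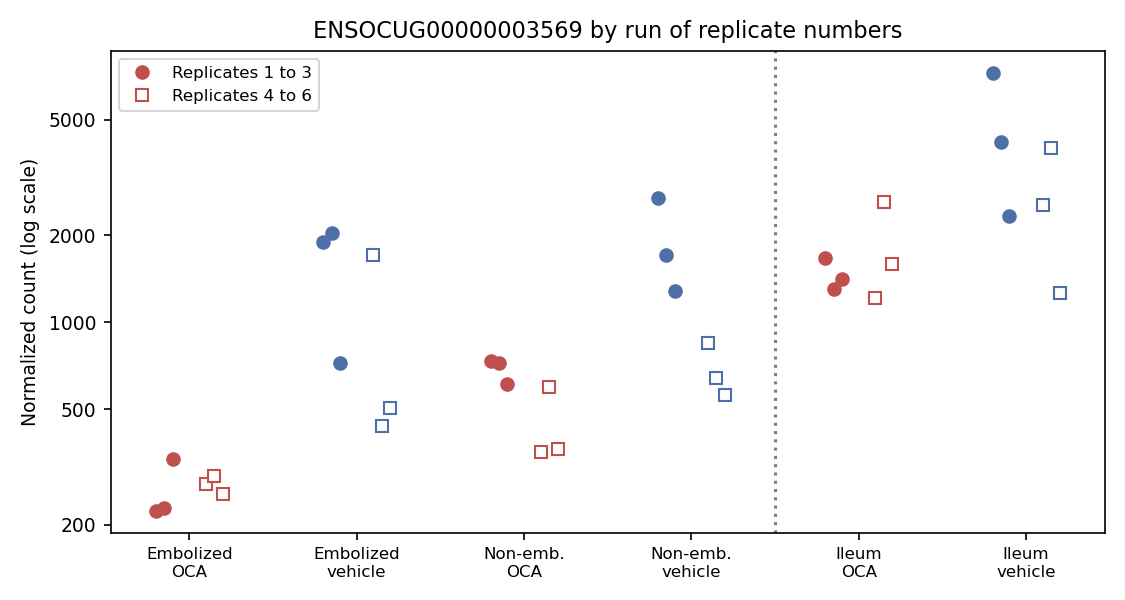
Normalized counts (log scale) of ENSOCUG00000003569 by library, with replicates 1 to 3 as filled circles and replicates 4 to 6 as open squares, OCA in red and vehicle in blue. In the non-embolized lobe the runs do not overlap in either treatment, as for 1.49% of all genes, and in ileum they overlap in both.

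Whether both genes varied together from library to library was examined within groups. The choice used each gene's group means and spread, to which the embolized libraries belong, but not how the libraries of one gene line up with those of the other. In the embolized lobe Pearson's r of the log2 values was 0.58 after OCA (exact permutation p = 0.233, n = 6) and 0.13 after vehicle (exact permutation p = 0.793, n = 6). The r in the non-embolized lobe was 0.62 after OCA (exact permutation p = 0.189, n = 6) and 0.39 after vehicle (exact permutation p = 0.432, n = 6). Spearman's rho was 0.54 and −0.09 in the embolized lobe after OCA and after vehicle (exact permutation p = 0.297 and 0.919). It was 0.77 and 0.37 in the non-embolized lobe after OCA and after vehicle (exact permutation p = 0.103 and 0.497). None of the 4 relations passed after adjustment (smallest adjusted p from the permutations 0.467 for r and 0.411 for rho). Without the 2 libraries farthest from the median of ENSOCUG00000012283, r was 0.74 and 0.68 in the embolized lobe after OCA and after vehicle. In the non-embolized lobe it was 0.56 and 0.88, so after OCA it fell from 0.62. These values rest on fewer libraries and were not tested. Over the 24 liver libraries, deviations from group means gave r = 0.23, and 1364 of 6520 genes with a mean of at least 50 were more like ENSOCUG00000012283 than ENSOCUG00000003569 was. These deviations were not scaled by the spread of each group. The embolized OCA libraries weigh most for ENSOCUG00000012283 (log2 SD 2.44), and there ENSOCUG00000003569 varied little (log2 SD 0.23). The pooled r and the count of 1364 are thus not an even measure over the 4 groups.

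**Figure D5:**
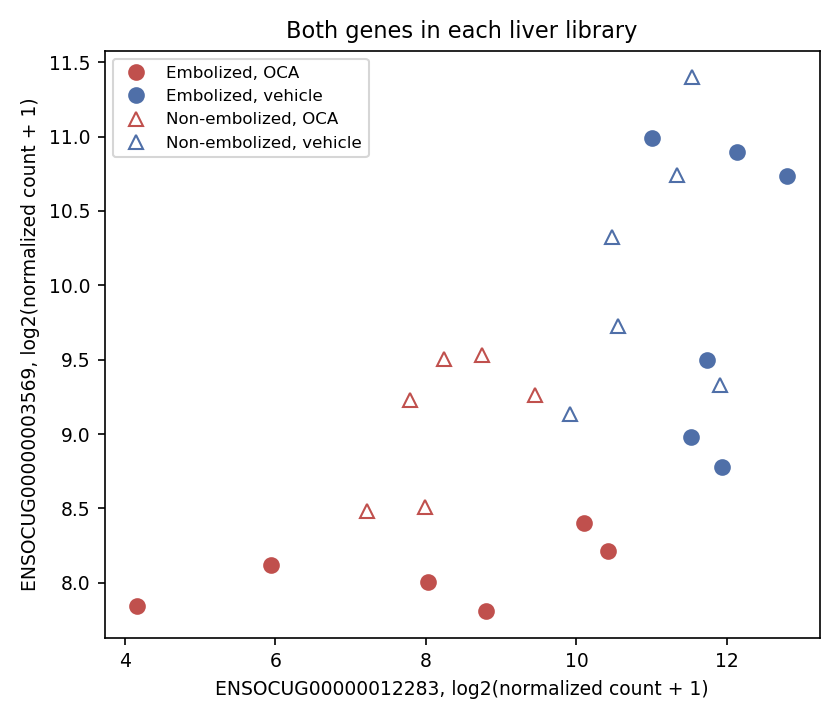
Each point is a liver library, with log2(normalized count + 1) of ENSOCUG00000012283 on the x axis and of ENSOCUG00000003569 on the y axis; circles are the embolized and triangles the non-embolized lobe, OCA in red and vehicle in blue. In the embolized lobe all OCA libraries lie left of and below all vehicle libraries, in the non-embolized lobe they lie left of them but overlap on the y axis, and within the embolized OCA group the first gene spans 81.0-fold and the second 1.51-fold.

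Other genes were ranked by likeness to each of the 2, as Pearson's r of log2 values over the 24 liver libraries, which share their group differences. The genes most like ENSOCUG00000012283 were ENSOCUG00000006887 (r = 0.90) and ENSOCUG00000011339 (r = 0.83), which were both among the 12 called lower after OCA in the embolized lobe. ENSOCUG00000006887 averaged 2454 ± 1170 normalized counts after OCA and 7637 ± 3114 after vehicle in the embolized lobe, and 3223 ± 933 after OCA and 6231 ± 1740.2 after vehicle in the non-embolized lobe (SD, n = 6 each). The genes most like ENSOCUG00000003569 were ENSOCUG00000024434 (r = 0.94) and ENSOCUG00000015771 (r = 0.91). ENSOCUG00000024434 averaged 167 ± 36.01 after OCA and 463 ± 252 after vehicle in the embolized lobe, and 252 ± 37.1 after OCA and 437 ± 187 after vehicle in the non-embolized lobe. Neither of these last 2 genes passed in either lobe (limma adjusted p of 0.0715 and 0.279 for ENSOCUG00000024434, and of 0.0618 and 0.299 for ENSOCUG00000015771, in the embolized and the non-embolized lobe).

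Likeness was also computed with group means subtracted, which leaves only the variation within groups. That variation includes the difference between replicates 1 to 3 and 4 to 6, which was 0.75 ± 0.23 for ENSOCUG00000003569 in liver. Whether the genes most like it share that difference was not tested. ENSOCUG00000003569 again had ENSOCUG00000024434 near the top (r = 0.86), behind ENSOCUG00000001938 (r = 0.88), and 7 genes reached an r of 0.8. For ENSOCUG00000012283 no gene did, and the closest were ENSOCUG00000015024 (r = 0.76) and ENSOCUG00000006756 (r = 0.75). The embolized OCA libraries, with a log2 SD of 2.44 for ENSOCUG00000012283, weigh most in its r values. Unlike ENSOCUG00000012283, ENSOCUG00000015024 had a higher mean after OCA than after vehicle in the embolized lobe, at 425 ± 76.3 after OCA and 366 ± 45.6 after vehicle (SD, n = 6 each), and it was not called (limma adjusted p = 0.505). Over all 6520 genes the median r was 0.01 with ENSOCUG00000012283 and −0.01 with ENSOCUG00000003569.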

How the data were processed

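Gene expression was measured in 36 rabbit libraries by RNA-seq. Strand-specific paired-end libraries of total RNA were read for 150 bases per end, per the labels. STAR, RSEM and DESeq2 are named in the submitters' processing notes; versions, genome build and annotation: not given in the sources used here. Each deposited signal value is a count per gene, divided by a size factor per library by the authors. In every library 100% of values were whole multiples of the smallest step within a tolerance of 0.01, so reads could be recovered. No 2 libraries of a group agreed within sampling noise: over 90 pairs the smallest chi-square of their reads was 38.7 per degree of freedom.

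Groups were compared by limma-trend (limma 3.58.1, R 4.3.3) on log2(normalized count + 1). It used genes reaching 10 normalized counts in at least 6 libraries of the table, with Benjamini-Hochberg adjustment over all of them and a threshold of 0.05. Log2 differences on this scale understate changes of low genes. Liver (24 libraries) and ileum (12 libraries) were fitted apart. edgeR 4.0.16 and DESeq2 1.42.0 were run on recovered reads as alternatives. The fit was tested on simulated reads.

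Both genes, the comparisons and the alternatives were chosen with earlier results of these data known. Named genes were both members, for each the 2 most alike by r with and without group means subtracted, and the next in size among genes called lower in the embolized lobe. Planned lists of bile acid and cell type genes were not tested, as no ID had a name. The planned permutation test of ENSOCUG00000012283 in ileum is not reported, as all its libraries were under the floor of 3 reads. P-values measure only how these libraries vary, which may be technical variation. Counting floors cover counting error only.

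Deviations from group means of same-numbered libraries correlated at 0.14 to 0.53 between the vehicle lobes, all 6 above 0.1. Between OCA and vehicle libraries of the non-embolized lobe, which differ in treatment, the highest was 0.54, with 4 of 6 above 0.1. The size of these correlations therefore cannot show whether the numbers pair the lobes, and no label states it. Of the 6 embolized libraries, 4 after vehicle and 5 after OCA were most like the non-embolized library of their own number. Between OCA and vehicle libraries the own number was the most alike for 1 of 6 in the embolized lobe. It was so for 2 of 6 in the non-embolized lobe and 0 of 6 in ileum. Whether this difference in counts reflects pairing was not tested. The blocked standard errors stand beside the lobe differences. In the other comparisons 1 to 5 of 6 exceeded 0.1.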

Additional observations from a re-analysis of the deposited data

Results flagged for a closer look

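ENSOCUG00000003569 in ileum after OCA had 1 library flagged as far from the others: replicate 5 was at 2609.8 normalized counts. In normalized counts, the scale tested here rather than log2 values, its gap to the next library was 0.679 of the group's range. This is above Dixon's critical value of 0.625 for 6 libraries. On the log2 scale used for the comparisons, replicate 5 was at 11.35, the next library at 10.70 and the lowest at 10.25. The gap is then a share of the range below 0.625, so the flag holds only for normalized counts. Without replicate 5 the ileum difference was −1.13 ± 0.36 on the log2 scale (limma adjusted p = 0.337). Of 10 groups tested 1 was flagged; chance flags about 1 in 20.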

How the results depend on the processing

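The OCA differences of both genes kept their sign in the lobes, and that of ENSOCUG00000003569 in ileum, under every alternative run. In the non-embolized lobe ENSOCUG00000012283 ran from −2.95 to −2.51 when single libraries were left out (limma adjusted p 0.0574 to 0.168). It passed with sample quality weights (−2.72, adjusted p = 0.0227), DESeq2 (−2.69) and only the 2 groups fitted (−2.71). It had an unadjusted p under 0.05 by the exact permutation test (−2.71). It also passed with the replicate block (−2.71, adjusted p = 0.0429), where the numbers are not known to pair these libraries and the count of genes called moved to 127, against 54. ENSOCUG00000003569 had an unadjusted p under 0.05 there (−1.02) and in ileum (−0.98) by the exact permutation test. Unadjusted limma p-values were under 0.05 for 1214 genes of that lobe and for 688 of ileum. The libraries of that lobe are not independent of the choice of the genes. With sample quality weights, which called 349 genes in ileum, ENSOCUG00000003569 passed there (−1.48). Within groups, r of the genes turned to −0.023 with equal totals in the embolized lobe after OCA. With single libraries left out it ran from −0.25 to 0.74 in the embolized lobe after vehicle (−0.25 without replicate 4, −0.00046 without replicate 6) and from 0.041 to 0.94 in the non-embolized lobe after vehicle (0.94 without replicate 5). In the embolized lobe ENSOCUG00000012283 was −2.88 with edgeR and with DESeq2, which is also the log2 ratio of its group means. The call there was lost in 4 of 15 settings for ENSOCUG00000012283 (edgeR, only the 2 groups, replicates 1 to 3, replicates 4 to 6) and in 3 of 15 for ENSOCUG00000003569 (equal totals, only the 2 groups, replicates 4 to 6), and with single libraries left out in 0 of 12 and 8 of 12 fits. The lobe difference changed sign for ENSOCUG00000012283 after OCA (−1.12 to 0.67) and for ENSOCUG00000003569 after vehicle (−0.36 to 0.24). The number of genes called in the embolized lobe was 17, from 0 to 294 over alternatives, in the non-embolized lobe 54, from 5 to 398, in ileum 0, up to 349, and between the lobes 2781 after OCA, from 880 to 3317, and 2210 after vehicle, from 565 to 3443. Equal totals shifted the median of all genes by 0.13 in the embolized lobe, to 0.15. Chosen after seeing the data were the ileum fit without both libraries that stood apart (−1.26 for ENSOCUG00000003569) and a replicate block with the number taken within each treatment. With that block, 3317 genes were called between the OCA lobes and 2792 between the vehicle lobes. Depth limits ENSOCUG00000012283 in ileum, where it was under the floor.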
